A study of Mus musculus with 2 samples.

Results

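The genes of oxidative phosphorylation were followed in mouse retina as a module split by genome: 13 subunit genes carried by mitochondrial DNA and 93 nuclear genes, 106 of the 32285 genes in the files. Members were taken by symbol. The pattern took the mt-Nd, mt-Co, mt-Atp and mt-Cytb genes, the nuclear Nduf, Cox4 to Cox8, Uqcr and Atp5 families, and Sdha, Sdhb, Sdhc and Sdhd. It matched 107 symbols, of which 1 pseudogene was left out. Complex I had 7 mitochondrial and 44 nuclear members (8 of the nuclear ones are assembly factors), complex II 4 nuclear members, complex III 1 and 8, complex IV 3 and 20, and complex V 2 and 17.

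Mice were kept from postnatal day 14 for 2 weeks under short-wavelength light or under full-spectrum white light, and whole retina was then dissociated for droplet single-cell RNA sequencing. The labels name no strain, sex or number of animals, and each light condition is 1 library, so no test between conditions was possible and every difference is one between these libraries. The labels name a pair of kit versions for library preparation without saying which library used which, so kit and light cannot be told apart if they differed. All intervals are 95% intervals that cover counting error only. Unique molecular identifiers (UMIs) count captured transcripts, and the short-wavelength library held 51681469 of them in 16106 barcodes (a median of 2434 each) against 20952589 in 5707 barcodes (a median of 2784) under white light.

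The mitochondrial respiratory chain passes electrons from NADH (complex I) and succinate (complex II) through complex III to oxygen at complex IV, and complex V, the ATP synthase, uses the resulting proton gradient to make ATP. Mitochondrial DNA encodes core subunits of complexes I, III, IV and V, while all of complex II and most other subunits come from nuclear genes, so the complexes need the products of both genomes. Photoreceptors are known for a dense pack of mitochondria in the inner segment.

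Cells were gated by marker UMIs, with no clustering, after doublets were removed. A gate asked for at least 10 UMIs from at least 4 markers of a class, and barcodes with rod markers above a limit were left out of the other classes. The short-wavelength library gave 12919 rods and the white-light library 4782, cones 272 and 89, rod bipolar cells 128 and 43, Müller glia 85 and 36, and microglia 42 and 17. Markers held out of the gates were highest in their own class: Kcnj10, Car14, Cp and Id3, for instance, summed to 2888 and 2596 CPM (UMIs scaled to a total of 1000000) in Müller glia and to 15.2 and 19.4 CPM in rods. The libraries shared 26 barcode sequences, 22 of them among gated cells. A rod transcript was present in every class: Gnat1, the rod transducin alpha subunit and one of the markers of the rod gate, stood at 3242 and 3519 CPM in rods and between 441 and 690 CPM in the other classes, and the part of such RNA in the values of those classes was not tested.

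A few gated barcodes carried at least 10 UMIs of the markers of other types counted for this rule, and 1 of them weighs on the Müller glia. This white-light barcode held 32881 UMIs, 10.1% of all UMIs of its class, with 126 UMIs of Calb1, 17 of Lhx1 and 17 of Onecut1, which are horizontal cell markers, against 2 of Rlbp1. It contributed 938 mitochondrial and 936 nuclear member UMIs. A white-light microglia barcode with 64 UMIs of Grik1, a marker of cone bipolar cells, held 8.67% of the UMIs of its class. In the rod bipolar gate 4 short-wavelength and 2 white-light barcodes, with 12 to 238 UMIs of Grik1, held 2.97% and 6.56% of the UMIs. The 3 markers of OFF cone bipolar cells summed to 268 and 906 CPM in this gate, and without those barcodes Grik1 was at 134 and 149 CPM. The 3 markers of ON cone bipolar cells summed to 1274 and 1250 CPM. Of these, Isl1 is a gate marker and Grm6 a held-out marker of rod bipolar cells, so the sum does not tell the types apart. Whether ON cone bipolar cells passed this gate was not tested. The rule of 10 UMIs also marked 3 short-wavelength and 26 white-light rods and 1 short-wavelength cone, and no short-wavelength Müller glia. In the Müller gate the 6 amacrine markers summed to 1188 and 1284 CPM (51.3 and 52.1 in rods). The 3 endothelial markers summed to 599 and 542 CPM there (11.9 and 11.5 in rods). Values without the marked barcodes are thus not free of such markers, and their source was not tested. Values of all classes use all gated barcodes unless stated, and light ratios of the balance are given with and without the marked barcodes.

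The sequences below show overlaps that bear on how members are counted, and promoter windows whose relation to the levels was not tested. In mitochondrial DNA, mt-Atp8 and mt-Atp6 overlap by 43 bases and mt-Nd4l and mt-Nd4 by 7 bases on the same strand, and each pair lies on 1 message, so that counts within a pair are not separate measurements. Both stretches run 5′ to 3′ on the plus strand of GRCm38 with 20 bases on either side, and capitals mark the overlap, which opens with the ATG start codon of the downstream gene. They lie at chrM:7907-7989 and chrM:10147-10193.
mt-Atp8/mt-Atp6: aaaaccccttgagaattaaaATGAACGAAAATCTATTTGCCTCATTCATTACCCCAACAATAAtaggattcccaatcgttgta
mt-Nd4l/mt-Nd4: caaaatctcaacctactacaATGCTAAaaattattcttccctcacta

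For nuclear members, RefSeq promoter windows (GRCm38.p6, 250 bases before to 50 after the start) were matched for 75 of 93 genes, in 80 windows. The form bound by the factor NRF1 (GCGCA, any base, GCGC) was found on either strand in 20 of 80 windows (25%) against 4.60% of all 32851 windows. CCGGAAG, an ETS-type form that GABP binds, was in 23.8% of member windows against 8.86%. AAGATGGCG, a YY1-type form, was in 10.0% against 1.40%, and AAGGTCA, the form of estrogen-related receptors, in 10.0% against 4.72%. TATAAA was in 11.2% against 13.6%. Bases G and C made up 57.8% of member windows and 53.8% of all, and windows were not matched for it. Overlapping matches of different forms were all counted, and a match is a description of the letters.

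Promoters of 4 members that stand out below are shown 5′ to 3′ in the direction of transcription, with any match to these forms in capitals. Ndufaf5 (chr2:140170396-140170695, plus strand) holds the NRF1-type form after its start, Ndufa9 (chr6:126849095-126849394, minus strand) the YY1-type form, and Cox8a (chr19:7217567-7217866, minus strand) 2 copies of the ETS-type form. Cox6b2 (chr7:4753045-4753344, minus strand), an isoform gene high in Müller glia, has none of the 5 in this window.
Ndufaf5: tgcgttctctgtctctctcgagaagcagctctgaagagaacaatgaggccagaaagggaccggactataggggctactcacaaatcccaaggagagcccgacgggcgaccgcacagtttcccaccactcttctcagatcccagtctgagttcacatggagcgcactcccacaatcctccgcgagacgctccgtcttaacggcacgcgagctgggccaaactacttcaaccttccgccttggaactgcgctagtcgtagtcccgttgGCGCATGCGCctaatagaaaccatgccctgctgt
Ndufa9: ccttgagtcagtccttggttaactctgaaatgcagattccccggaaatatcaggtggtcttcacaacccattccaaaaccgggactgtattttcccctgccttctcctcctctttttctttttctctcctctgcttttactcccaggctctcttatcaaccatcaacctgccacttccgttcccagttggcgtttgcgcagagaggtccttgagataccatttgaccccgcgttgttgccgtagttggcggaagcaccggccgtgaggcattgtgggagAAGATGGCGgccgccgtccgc
Cox8a: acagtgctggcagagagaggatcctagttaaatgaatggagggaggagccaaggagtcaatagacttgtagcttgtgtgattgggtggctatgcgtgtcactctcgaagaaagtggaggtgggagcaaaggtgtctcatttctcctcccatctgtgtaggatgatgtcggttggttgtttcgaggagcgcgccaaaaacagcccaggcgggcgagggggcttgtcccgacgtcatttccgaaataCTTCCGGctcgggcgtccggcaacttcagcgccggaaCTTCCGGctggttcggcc
Cox6b2: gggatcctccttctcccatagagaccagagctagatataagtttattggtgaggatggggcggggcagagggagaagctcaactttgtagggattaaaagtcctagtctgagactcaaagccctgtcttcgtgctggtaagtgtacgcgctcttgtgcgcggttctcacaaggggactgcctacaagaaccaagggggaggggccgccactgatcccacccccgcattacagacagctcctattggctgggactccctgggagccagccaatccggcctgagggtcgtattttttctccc

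Members were far more abundant in cones and rod bipolar cells than in rods, and the share that came from mitochondrial DNA was larger in every other class than in rods. The 13 mitochondrial members summed to 7708 CPM in rods under short-wavelength light and 8987 CPM under white light. In cones they reached 28037 and 32082 CPM, in rod bipolar cells 20163 and 22785 CPM, in Müller glia 8270 and 10258 CPM, and in microglia 9571 and 12102 CPM. The 93 nuclear members summed to 11536 and 12549 CPM in rods, 24491 and 26281 in cones, 20656 and 21932 in rod bipolar cells, 7147 and 9572 in Müller glia, and 8612 and 8308 in microglia. Cones and rod bipolar cells thus stood above rods for both genomes, while Müller glia and microglia were below rods for nuclear members. Microglia were above rods for mitochondrial members, at 1.24-fold and 1.35-fold (1.24-fold under both lights without the Grik1-positive barcode). In Müller glia the mitochondrial level over rods was 1.07 (1.04 to 1.11) in the short-wavelength library. In the white-light library it was 1.14 with the horizontal-marker barcode and 0.916 (0.880 to 0.954) without it, so the direction turned. Without that barcode white-light Müller glia had 8211 CPM of mitochondrial and 7454 CPM of nuclear members.

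The balance, the summed mitochondrial member UMIs divided by the summed nuclear member UMIs, does not depend on library size or scaling. Each UMI stands for 1 captured molecule whatever the length of the message, and the part of unspliced RNA in nuclear counts was not tested. Capture also differs between messages, so the balance compares cells and not subunit numbers. In rods it was 0.668 (0.665 to 0.671) in the short-wavelength library and 0.716 (0.711 to 0.721) in the white-light library, and pairs of values keep that order. In rod bipolar cells it was 0.976 (0.956 to 0.997) and 1.04 (1.01 to 1.07), and in cones 1.14 (1.13 to 1.16) and 1.22 (1.195 to 1.247). Müller glia had 1.16 (1.11 to 1.21) and 1.07 (1.02 to 1.13), and microglia 1.11 (1.05 to 1.17) and 1.46 (1.35 to 1.57). Rods were lowest in both libraries, and their interval overlapped no other.

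Relative to rods of the same library, the balance was 1.71-fold in cones under short-wavelength light (1.69 to 1.74) and 1.70-fold under white light (1.67 to 1.74). In rod bipolar cells it was 1.46-fold (1.43 to 1.49) and 1.45-fold (1.40 to 1.5). Both classes gave nearly the same fold in both libraries. Müller glia gave 1.73-fold (1.66 to 1.81) and 1.5-fold (1.42 to 1.57), and microglia 1.66-fold (1.58 to 1.75) and 2.03-fold (1.88 to 2.20). These folds include the barcodes of other types. Without them the white-light balance was 1.10 in Müller glia, 1.33 in microglia and 0.715 in rods, against 1.07, 1.46 and 0.716 with them. The order of cones, Müller glia and microglia was not the same in both libraries: under short-wavelength light, cones differed from neither of the other classes beyond counting error (ratios 0.989, from 0.945 to 1.04, and 1.03, from 0.976 to 1.09).

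**Figure D1:**
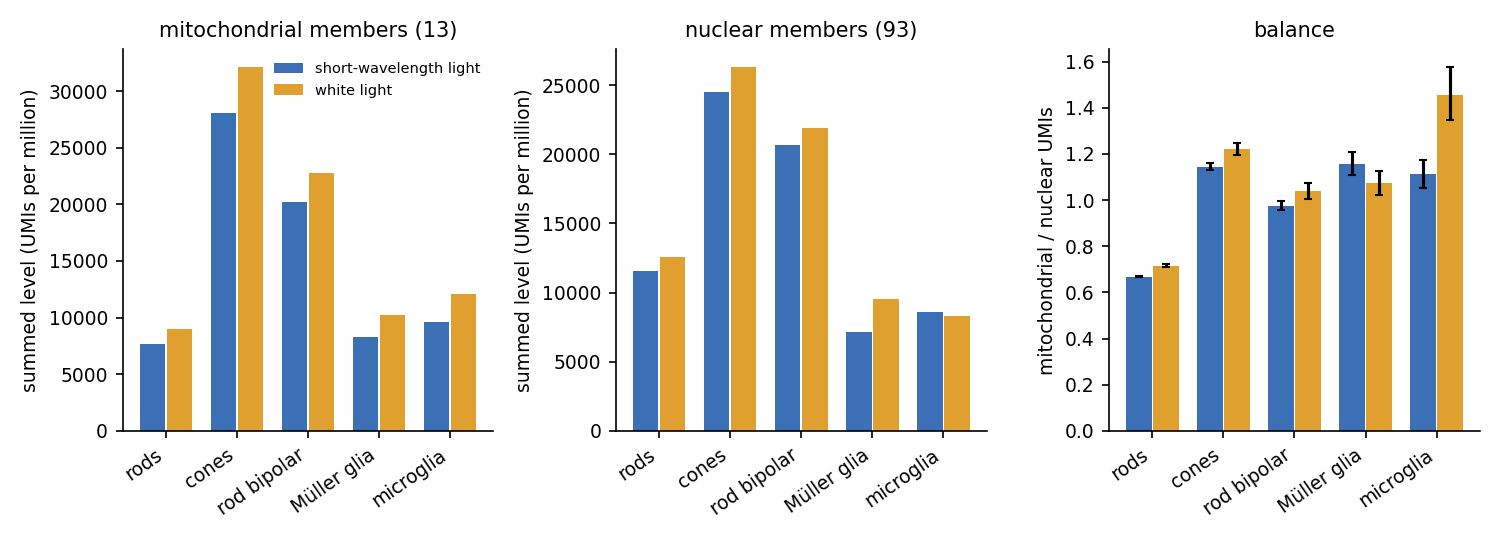
Summed level of the 13 mitochondrial members (left, CPM) and of the 93 nuclear members (middle, CPM) and their balance (right, a ratio of UMIs) in each gated class, for short-wavelength (blue) and white light (orange), 1 library each. Bars are values per class and library, and error bars on the right are 95% counting intervals. Rods have the lowest balance in both libraries, 0.668 and 0.716.

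Single cells varied widely within a class. The median rod had 0.346% of its UMIs in mitochondrial members under short-wavelength light and 0.490% under white light, and the median cone 2.86% and 3.3%. The middle 80% of rods ran from 0.108% to 2.52% and from 0.148% to 2.66%, so that the upper end of rods came near the median cone. The median in Müller glia was 0.605% and 0.586%, below their summed shares of 0.827% and 1.03% and in the other order between lights. More mitochondrial than nuclear member UMIs were counted in 18.0% and 22.3% of rods, in 58.1% and 66.3% of cones, in 42.2% and 48.8% of rod bipolar cells, in 43.5% and 44.4% of Müller glia and in 54.8% and 70.6% of microglia. Median depth per cell was 2309 and 2688 UMIs in rods and 5707 to 8248 UMIs in the other classes. Shares varied with depth among rods divided into 5 parts by UMIs per cell. Mitochondrial members made 1.35% and 2.03% of UMIs in the part with fewest UMIs. In that with most they made 0.530% and 0.749%, with no steady order between. The part of depth in the differences between classes was not tested.

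By complex, the gap between classes and rods was uneven, and in cones and rod bipolar cells it was smallest for complex V. In cones the balance over rods was 1.83 and 1.8 for complex I, 1.93 and 1.86 for complex III, 1.72 and 1.70 for complex IV, and only 1.23 (1.19 to 1.26) and 1.29 (1.23 to 1.35) for complex V. In rod bipolar cells it was 1.54 and 1.52 for complex I, 1.37 and 1.29 for complex III and 1.81 and 1.78 for complex IV. For complex V it was below that of rods there, at 0.818 (0.781 to 0.856) and 0.833 (0.777 to 0.892): its nuclear members were at 2.11-fold and 1.99-fold the rod level and its mitochondrial members at 1.73-fold and 1.66-fold. No other class and complex had a ratio whose interval lay wholly below 1 in both libraries. In Müller glia complex I stood highest, at 2.15 and 1.74, and in microglia complex I again, at 2.34 and 2.46. Complex V was at 1.75 and 1.23 in Müller glia, above complexes III (1.47) and IV (1.48) under short-wavelength light. The white-light value depends on the horizontal-marker barcode. With it the complex V balance itself was 0.960 in Müller glia and 0.781 in rods. Without barcodes of other types it was 1.13 and 0.780. In microglia complex V was at 1.10 and 1.42 over rods, and complex III was lower under short-wavelength light, at 0.983 (0.847 to 1.14). Without the Grik1-positive barcode the white-light balance itself in microglia was 1.14 for complex I and 1.0 for complex V. With it these were 1.23 and 1.11.

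**Figure D2:**
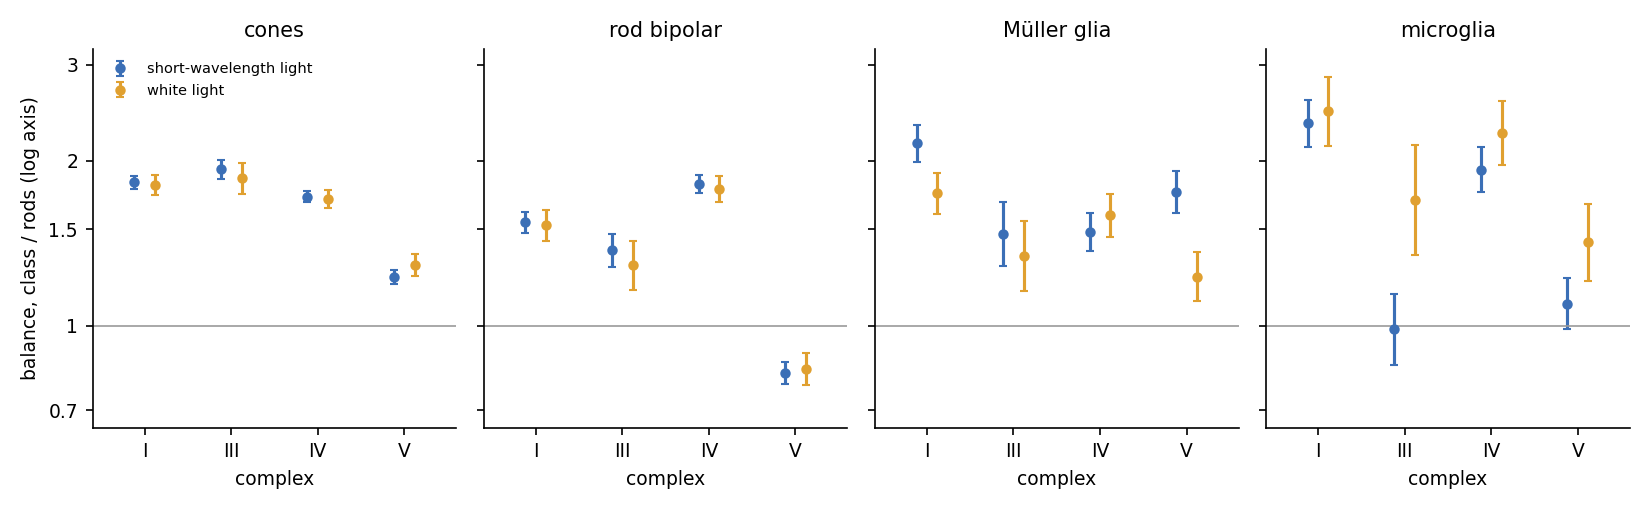
Balance of mitochondrial to nuclear member UMIs in each class divided by that in rods of the same library, by complex (log axis, 1 marked by a grey line), for short-wavelength (blue) and white light (orange). Points are ratios with 95% counting intervals, and complex II has no mitochondrial member. Complex V in rod bipolar cells lies below 1 in both libraries, at 0.818 and 0.833.

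Among the 13 mitochondrial genes, mt-Atp6, which encodes the proton channel subunit a of the ATP synthase, was the most abundant in rods, with 2168 CPM under short-wavelength and 2415 CPM under white light. It was followed by mt-Cytb (cytochrome b, complex III) with 1158 and 1345 CPM, mt-Co2 with 991 and 1160 CPM, mt-Co3 with 839 and 958 CPM, and mt-Nd4 with 707 and 835 CPM. The least abundant were mt-Nd6, the only member on the other strand, with 22.1 and 24.6 CPM, and mt-Atp8 with 37.0 and 39.3 CPM, although mt-Atp8 shares its message with mt-Atp6. Counts at 3′ ends are thus not levels per gene along these messages, and values are compared only for 1 gene between cells. Gene positions here and below are those of the GENCODE annotation of mm10.

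The gene whose share moved most between classes was mt-Co1 (chrM:5328-6872), the catalytic subunit of complex IV, which holds the oxygen-binding site. In rods it made 7.99% and 8.07% of mitochondrial member UMIs. In cones it made 15.4% and 15.0%, in rod bipolar cells 19.9% and 21.1%, in Müller glia 9.93% and 11.5%, and in microglia 14.5% and 15.9%. In CPM, mt-Co1 went from 616 and 725 in rods to 4312 and 4812 in cones, 7.01-fold (6.82 to 7.19) and 6.63-fold (6.37 to 6.91). Rod bipolar cells had 4008 and 4803 CPM of it, 6.51-fold (6.28 to 6.75) and 6.62-fold (6.28 to 6.98). In Müller glia the libraries differed for mt-Atp6, at 26.7% (25.4% to 28.0%) under short-wavelength light against 20.8% (19.5% to 22.2%) under white light, and 22.2% (20.6% to 24.0%) without the horizontal-marker barcode. The share of mt-Atp6 went the other way from mt-Co1 in the neurons, from 28.1% and 26.9% in rods to 21.2% and 21.4% in cones and 18.4% and 17.4% in rod bipolar cells. The complex I genes mt-Nd1 and mt-Nd2 also took smaller shares in both classes than in rods: mt-Nd2 made 4.47% and 5.02% in rods and 3.06% and 3.43% in cones.

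**Figure D3:**
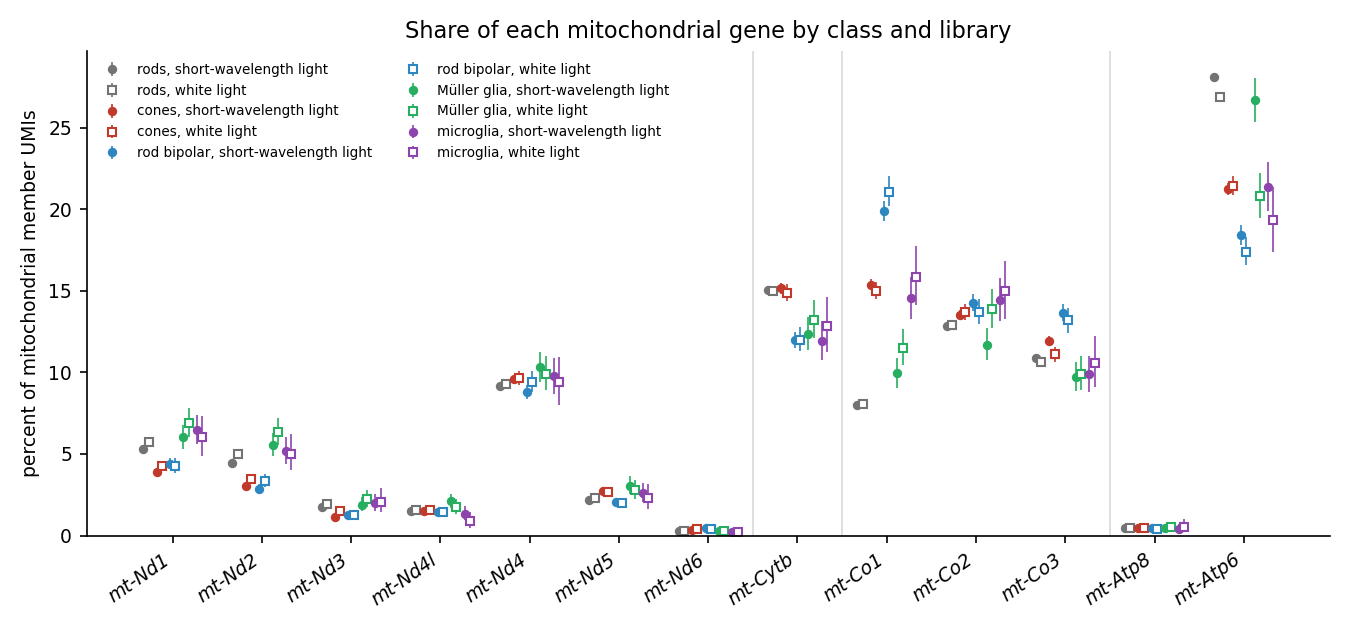
Share of each of the 13 mitochondrial genes among mitochondrial member UMIs (percent), by gated class (colour) and library (filled circles short-wavelength, open squares white light), with 95% counting intervals, in the order of complexes I, III, IV and V. The mt-Co1 share runs from 7.99% and 8.07% in rods to 19.9% and 21.1% in rod bipolar cells, and the mt-Atp6 share in Müller glia is 26.7% in one library and 20.8% in the other.

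A member was called higher or lower than in rods when its whole interval lay beyond 2-fold in both libraries. The 4 comparisons use the same rods. Cones had 36 such members, all higher: 13 of 13 mitochondrial and 23 of 86 nuclear members tested, against 4.83% of all genes called higher in cones. Of the nuclear ones 8 belonged to complex V, 7 each to complexes I and IV, 1 to complex III and none to complex II. The median log2 ratio was 1.86 and 1.82 over mitochondrial and 1.0 and 1.01 over nuclear members, beside -0.15 and -0.14 over all genes tested. Nuclear members stood above rods in both libraries in 79 of 86 cases.

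Cox8a, a small structural subunit of complex IV, led the nuclear members in cones with 2078 and 2248 CPM against 393 and 462 CPM in rods, 5.29-fold (5.10 to 5.48) and 4.87-fold (4.59 to 5.16). Among mitochondrial members mt-Nd5, a proton-pumping subunit of complex I, had 773 and 862 CPM in cones against 167 and 205 CPM in rods, 4.63-fold and 4.2-fold. The complex IV subunits mt-Co2 and mt-Co3 were 3.83-fold and 3.78-fold, and 3.99-fold and 3.72-fold, higher. Ndufaf5, an assembly factor of complex I, lies outside the naming rule for cones and was chosen after its values were seen, since it went in opposite directions in the neurons compared. It had 398 and 376 CPM in cones, 94.2 and 94.7 CPM in rods and 26.4 and 17.8 CPM in rod bipolar cells. That is 4.22-fold (3.88 to 4.58) and 3.97-fold (3.44 to 4.57) in cones, and 0.280 (0.175 to 0.425) and 0.188 (0.0688 to 0.409) of the rod level in rod bipolar cells. Gnat1 stood at 479 and 456 CPM in rod bipolar cells, and the part of rod RNA in the latter values was not tested.

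In rod bipolar cells 13 members were called higher, 5 of 13 mitochondrial and 8 of 86 nuclear, against 7.25% of all genes, and 2 were called lower against 5.34%. With median-of-ratios scaling 28 were higher and 1 lower. That scaling moved the median log2 ratio of all genes from -0.22 and -0.23 to -0.06 and -0.06. The shares of all genes above therefore do not apply to it, and its own are not given. Atp5mpl (chr12:111961375-111966977), a small subunit of the ATP synthase, had 625 and 743 CPM against 134 and 146 CPM in rods, 4.65-fold (4.24 to 5.10) and 5.11-fold (4.46 to 5.82). Cox7c, a complex IV subunit, had 496 and 583 CPM against 157 and 174 CPM, 3.15-fold and 3.35-fold, and Cox8a 1243 and 1386 CPM, 3.16-fold and 3.0-fold. The 5 mitochondrial genes were mt-Co1, mt-Co2, mt-Co3, mt-Nd4 and mt-Nd6.

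Of the nuclear members with most UMIs in rods in complexes II to V, those of complexes III, IV and V were higher in cones than in rods, and that of complex II was at 0.895 (0.796 to 1.003) and 0.788 (0.636 to 0.965) of the rod level. Ndufa4, now placed in complex IV, had 692 and 765 CPM in rods and 1404 and 1476 in cones. Atp5b, the catalytic beta subunit of the ATP synthase, had 336 and 399 CPM in rods and 635 and 843 in cones. Uqcrh, the hinge subunit of complex III, had 259 and 268 CPM in rods and 411 and 429 in cones, and Sdha, the flavoprotein of complex II, 199 and 202 in rods and 178 and 159 in cones.

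Complex II as a whole, which has no mitochondrial gene, stayed near the rod level in cones and rod bipolar cells. Its 4 members summed to 351 and 361 CPM in rods, 380 and 374 in cones and 390 and 352 in rod bipolar cells, and to 213 and 316 in Müller glia and 213 and 311 in microglia. Without the barcodes of other types the white-light values were 279 in Müller glia and 341 in microglia. No member of it was called in any class.

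In Müller glia 4 members were called, 2 higher against 8.12% of all genes and 2 lower against 5%. In microglia 1 was higher against 6.66% (mt-Co1, 1391 and 1920 CPM, 2.26-fold and 2.65-fold) and 2 were lower against 4.14%, among them the complex I assembly factor Ndufaf4. These shares are near or below the background. With TMM scaling mt-Co1 was not called in microglia, and with median-of-ratios scaling 1 member was called lower in Müller glia and none in microglia. The share of all genes called under those scalings is not given. Nuclear members lay below rods in both libraries for 67 of 87 in Müller glia and 61 of 86 in microglia, with median log2 ratios of -0.67 and -0.33, and -0.47 and -0.64. All genes tested had medians of -0.26 and -0.24 in Müller glia and -0.49 and -0.50 in microglia, so the nuclear members of microglia sat near the bulk of genes. Without the horizontal-marker barcode, Ndufa10 and Atp5b joined Ndufa4 among the members called lower in Müller glia.

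Müller glia differed from every other class in which isoform genes they used. Cox4i1 (chr8:120668222-120674207) and Cox4i2 (chr2:152754173-152765037) encode alternative forms of the subunit 4 of complex IV, and Cox4i2 is known from lung and from hypoxic cells. In Müller glia Cox4i2 had 294 and 150 CPM, or 61.2% (54.9% to 67.3%) and 41.9% (32.8% to 51.4%) of the UMIs of both genes. In rods it had 3.59 and 2.91 CPM, or 1.67% and 1.22%, in cones 0.213% and 0.554%, in rod bipolar cells 0.409% and 0.493%, and in microglia 0 of 94 UMIs, which allows up to 3.19%, and 1 of 46. The level over rods was 81.8-fold (64.3 to 104) and 51.5-fold (33.7 to 79.0). A UMI of Cox4i2 was found in 56 of 85 Müller glia (65.9%, from 54.8% to 75.8%) and 23 of 36 (63.9%, from 46.2% to 79.2%), and in 2 of 272 (0.735%) and 2 of 89 (2.25%) cones. Median depths were 5707 and 8248 UMIs in Müller glia and 6327 and 6749 in cones. Cox4i1 itself was at 186 and 208 CPM in Müller glia, against 211 and 236 CPM in rods and 540 and 595 CPM in cones. Without the horizontal-marker barcode the white-light value was 143 CPM, or 0.608 (0.437 to 0.823) of rods, and Cox4i2 was at 57.1-fold (37.3 to 87.5). Of the markers of pericytes, a vascular cell type, Rgs5 and Kcnj8 were at 0 UMIs in the gated Müller glia, and Pdgfrb was at 111 and 82.8 CPM. The 3 endothelial markers summed to 599 and 542 CPM in this gate and the 6 amacrine markers to 1188 and 1284 CPM. The part of other cell types in the Cox4i2 values was not tested.

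The other isoform gene called in Müller glia was Cox6b2, known as the testis form of subunit 6b. It had 65.3 and 46.0 CPM, 24.7-fold (16.2 to 36.9) and 12.2-fold (6.44 to 21.9) over rods at 2.64 and 3.76 CPM, and made 35.4% (25.9% to 45.8%) and 23.4% (13.8% to 35.7%) of Cox6b UMIs. These levels rest on 34 and 15 UMIs in 20 of 85 and 12 of 36 cells. Without the horizontal-marker barcode the white-light level was 51.1 CPM, 13.6-fold over rods, and the share 30% (17.9% to 44.6%). In cones Cox6b2 made 4.07% and 3.57%, and in rods 1.92% and 2.54%. Cox6a2 and Cox8b, the heart and muscle forms of subunits 6a and 8, were at or near 0 in all classes: Cox6a2 had 1 UMI in cones and none elsewhere, and Cox8b had 8 UMIs in white-light rods and 1 in short-wavelength rod bipolar cells.

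Cones used the 3 genes of the ATP synthase c subunit, which code for the same mature protein, in another proportion. Atp5g1 made 50.4% (48.3% to 52.6%) and 50.1% (46.5% to 53.7%) of their UMIs in cones, against 36.9% and 37.5% in rods, 33.4% and 38.2% in rod bipolar cells, 27.3% and 23.2% in Müller glia and 27.9% and 32.0% in microglia. Atp5g1 stood at 624 and 635 CPM in cones and 176 and 189 CPM in rods. In microglia Cox7a2l, a factor in supercomplex assembly, made 65.9% (55.0% to 75.7%) and 46.5% (31.2% to 62.3%) of the Cox7a group, against 37.9% and 38.6% in rods, on 58 and 20 UMIs.

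Other lists around the respiratory chain held few called genes (4.83% of all genes were higher in cones and 2.29% lower). In rod bipolar cells 7.25% of all genes were higher and 5.34% lower. The same shares were 8.12% and 5% in Müller glia and 6.66% and 4.14% in microglia. The 78 mitochondrial ribosomal proteins had no gene called in any class, with median log2 ratios over rods of 0.27 and 0.22 in cones and -0.10 and -0.05 in rod bipolar cells. The list of assembly genes of complexes II to V also holds cytochrome c and Cyc1, a complex III subunit whose symbol lies outside the member pattern. In cones 2 of 29 genes of this list were higher (Uqcc2 at 3.04-fold and 3.29-fold, and Cycs, cytochrome c, at 2.27-fold and 2.75-fold). For the tricarboxylic acid cycle 1 of 15 was higher in cones (Idh3a, 4.34-fold and 3.86-fold) and also in rod bipolar cells (2.52-fold and 3.0-fold). Of carriers and membrane proteins 3 of 16 were higher in cones and 2 of 16 in rod bipolar cells, where Vdac1, a channel of the outer membrane, was 7.10-fold and 6.56-fold. Of 19 genes for mitochondrial DNA expression 1 was lower in cones and in rod bipolar cells (Polg2, at 0.220 and 0.125, and 0.206 and 0.182, of rods), with median log2 ratios of -0.26 and -0.33 in cones. Of 13 regulators of mitochondrial genes 3 were lower in cones and none higher, among them the coactivator Ppargc1b at 0.275 and 0.256 and the nuclear receptor Esrrb at 0.161 and 0.104 of the rod level. In Müller glia 1 of 19 genes for mitochondrial DNA expression was higher (Polg, 4.32-fold and 5.13-fold) and 1 lower. None of the carriers was higher there and 3 of 16 were lower (Slc25a5, Tomm20 and Ckmt1), as were 3 of 13 regulators and 1 of 29 assembly genes. In microglia 1 regulator was higher (Nfe2l2, 9.61-fold and 6.55-fold), 3 were lower, and 1 assembly gene was lower. Between lights no gene of these 6 lists was called in rods, rod bipolar cells or microglia. In cones 1 was called lower, against 0.482% of all genes (the ADP/ATP carrier Slc25a5, at 0.65, from 0.567 to 0.747). In Müller glia the phosphate carrier Slc25a3 was higher at 1.93 (1.31 to 2.92), against 1.09% of all genes. The nuclear receptor Esrrg and the malate dehydrogenase Mdh2 were lower there at 0.403 and 0.411, against 2.73% of all genes. Without the horizontal-marker barcode Slc25a3 was at 2.53 and Esrrg at 0.494, both still called, and Mdh2 was not called. In that setting 26 of 3585 genes were called higher and 36 lower.

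Under short-wavelength light the balance was slightly lower than under white light in rods, cones and rod bipolar cells, by about the same factor. In rods 0.668 against 0.716 gave a ratio of 0.933 (0.925 to 0.941). In cones 1.14 against 1.22 gave 0.938 (0.915 to 0.961), and in rod bipolar cells 0.976 against 1.04 gave 0.94 (0.904 to 0.976). Without the barcodes of other types, rod bipolar cells gave 0.954 (0.917 to 0.992). Both genomes were lower under short-wavelength light in these classes, and mitochondrial members more so: in rods they were at 0.858 (0.852 to 0.863) and nuclear members at 0.919 (0.914 to 0.924) of the white-light level. Markers of other cell types also differed between the rods of the libraries: the 3 erythrocyte markers, all detected, summed to 83.1 and 279 CPM, and the 3 markers of OFF cone bipolar cells to 2.39 and 14.6 CPM. Without barcodes with at least 10 UMIs of the counted markers of other types, Hbb-bs, a haemoglobin gene, was at 32.4 and 63.8 CPM in rods. The light ratios of mitochondrial and nuclear members in rods were then 0.860 (0.855 to 0.866) and 0.921 (0.916 to 0.926). The light differences in the balance are smaller than its 1.45-fold to 1.71-fold gap between cones or rod bipolar cells and rods. With 1 library per condition their size against the spread between retinas is unknown.

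The light ratio was uneven over the complexes. Complex I was lowest in all 3 neuron classes, at 0.863 (0.849 to 0.876) in rods, 0.874 (0.833 to 0.916) in cones and 0.874 (0.810 to 0.942) in rod bipolar cells. Complex V was at 1.0 (0.986 to 1.02) in rods, 0.954 (0.907 to 1.0) in cones and 0.984 (0.907 to 1.07) in rod bipolar cells. In rods complex III was at 0.927 and complex IV at 0.953. Counts of complex II in rods had a ratio of 0.972 (0.942 to 1.0).

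In Müller glia the direction was the opposite with all gated barcodes, and it was not distinguishable from no difference without the horizontal-marker barcode. The balance of 1.16 against 1.07 gave 1.08 (1.01 to 1.15), and 1.16 against 1.10 gave 1.05 (0.977 to 1.13) without that barcode. The level of mitochondrial members between lights went from 0.806 with it to 1.01 (0.958 to 1.06) without it, and that of nuclear members from 0.747 to 0.959 (0.909 to 1.01). The excess lay in complex V, at 1.43 (1.2501 to 1.64) with it and 1.21 (1.04 to 1.41) without it. In microglia 1.11 against 1.46 gave 0.763 (0.695 to 0.838), and 0.836 (0.759 to 0.921) without the Grik1-positive barcode, from 42 and 16 cells.

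**Figure D4:**
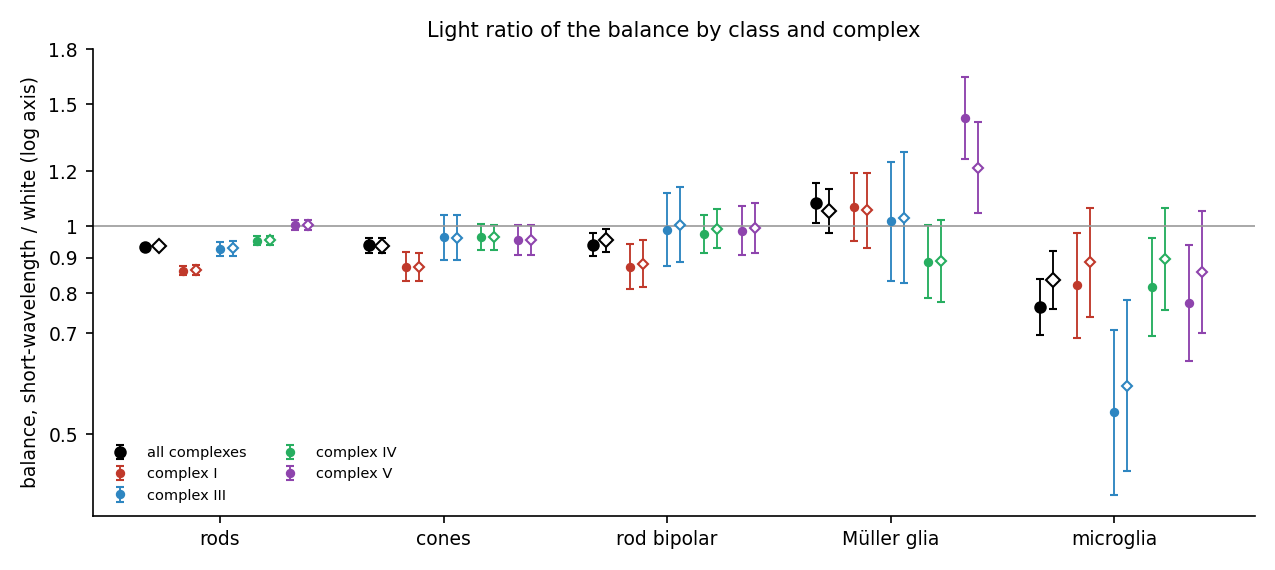
Balance of mitochondrial to nuclear member UMIs under short-wavelength light divided by that under white light (log axis, 1 marked by a grey line), by class and complex (colour), with 95% counting intervals. Filled circles use all gated barcodes, and open diamonds leave out barcodes with 10 or more UMIs of the counted markers of other types. Complex I is lowest in rods, cones and rod bipolar cells (0.863, 0.874 and 0.874), and the Müller glia value moves from 1.08 to 1.05.

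Single members were called between lights when the whole interval lay above 1 by more than 25%, or below 0.8. In rods 1 of 13 mitochondrial members tested was called lower, and none of 88 nuclear members was called. Over both sets this is near the 1.13% of all genes called lower. The member was mt-Nd2 (chrM:3914-4951), a membrane-arm subunit of complex I, with 345 CPM under short-wavelength and 451 CPM under white light, a ratio of 0.765 (0.743 to 0.788). With TMM scaling, with doublets kept or with a stricter cell filter it was not called. The others next to it were mt-Nd3 at 0.774 (0.738 to 0.812) and mt-Nd1 at 0.789 (0.768 to 0.811), also of complex I. All 13 mitochondrial members had a ratio below 1, with a median log2 ratio of -0.23, as had 79 of 88 nuclear members, with a median of -0.11, beside 0.01 over all genes tested. Of the 9 nuclear members above 1, 5 were assembly factors of complex I (Ndufaf2, Ndufaf4, Ndufaf6, Ndufaf7 and Ndufaf8), at 1.01 to 1.11, while the other 3 of its 8 assembly factors were below 1. The interval lay wholly above 1 for Ndufaf7 (1.02 to 1.21) and included 1 for the other 4. The others above 1 were Ndufs4, Ndufb3, Ndufs8 and Cox4i2. The nuclear subunit with the lowest ratio at over 1000 UMIs was Ndufb6 at 0.818 (0.743 to 0.90).

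In cones 2 members were called lower, against 0.482% of all genes, and 0 higher, against 0.397%. Ndufa9, an accessory subunit of complex I, had 44.5 CPM under short-wavelength and 97.8 CPM under white light, on 77 and 59 UMIs, a ratio of 0.455 (0.320 to 0.65). The other was mt-Nd3, with 315 and 489 CPM and a ratio of 0.644 (0.558 to 0.744). All 13 mitochondrial and 66 of 84 nuclear members were below 1, with medians of -0.20 and -0.09. In rod bipolar cells none of 13 mitochondrial and 79 nuclear members tested was called in either direction, with 1.37% of all genes called higher and 0.386% lower. All 13 mitochondrial members were below 1, and nuclear members divided into 47 below and 32 above.

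In Müller glia 11 mitochondrial and 61 nuclear members were tested. Of these 1 was called higher under short-wavelength light, against 1.09% of all genes, and 6 lower, against 2.73%. The 6 were Ndufb4, Ndufc1, Cox5a, Cox7a2, Atp5b and mt-Co2, and none of them was called without the horizontal-marker barcode. Atp5b, for instance, had 97.9 and 187 CPM with it, on 51 and 61 UMIs, of which that barcode held 37. The member called higher was Cox4i2, and it was called in both settings: 294 against 150 CPM gave 1.96 (1.41 to 2.76), and 294 against 167 CPM gave 1.76 (1.27 to 2.48) without that barcode, when its share of Cox4i UMIs under white light was 53.8% (43.1% to 64.4%). Without that barcode 26 of 3585 genes tested were called higher and 36 lower. Cox4i2 was then the only call among 11 mitochondrial and 52 nuclear members. A single call is too few to set the members apart from all genes. In microglia none of 11 mitochondrial and 29 nuclear members tested was called, with 2.48% of genes called higher and 2.14% lower.

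Among rods, the balance and its light ratio varied with the content of Malat1, a long noncoding RNA that stays in the nucleus. Rods of both libraries were divided together into 5 equal parts by their share of Malat1 UMIs. In the lowest of these parts mitochondrial members made 2.16% of short-wavelength and 1.81% of white-light UMIs, and in the highest 0.402% and 0.487%. Nuclear members went from 2.21% and 2.01% to 0.864% and 0.890%. The balance fell with each part from 0.977 to 0.465 in the short-wavelength library. In the other it went from 0.896 to 0.530 in the fourth part and was 0.547 in the last, a span wider than the gap between rods and rod bipolar cells.

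The light ratio of the balance in rods was 1.09 (1.08 to 1.10) in the lowest part, 0.991 (0.972 to 1.01) in the next, and then 0.95 (0.929 to 0.971), 0.906 (0.884 to 0.928) and 0.849 (0.824 to 0.875). It therefore changed direction with the Malat1 share. The libraries also filled the parts unevenly: the lowest held 16.6% of short-wavelength and 29.3% of white-light rods, and the highest 22.9% and 12.1%. In 5 parts by UMIs per cell the ratio was 0.830, 0.879, 0.936, 1.0 and 0.813, with no steady order. The part of nuclear against cytoplasmic RNA in the light difference was not tested beyond these values.

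**Figure D5:**
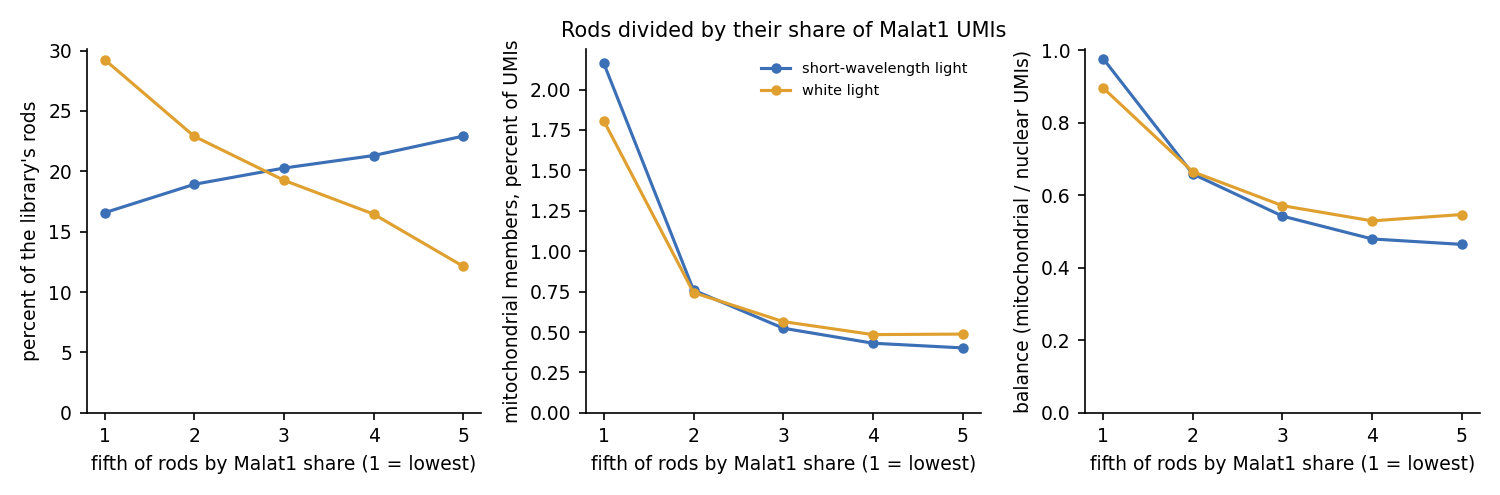
Rods of both libraries divided into 5 equal parts by their share of Malat1 UMIs (1 is the lowest): percent of each library's rods in the part (left), mitochondrial members as a percent of UMIs (middle) and balance of mitochondrial to nuclear member UMIs (right), for short-wavelength (blue) and white light (orange). Points are sums over the rods of a part. The balance runs from 0.977 to 0.465 and from 0.896 to 0.547, and the lines cross after the lowest part.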

How the data were processed

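The files hold unnormalized UMI counts, deposited as Cell Ranger 9.0.0 wrote them according to the headers. Per the submitters' processing notes the genome was mm10, and Seurat and edgeR are named there without a role. How reads shared with pseudogene copies were assigned is not given in the sources used here. Each light condition has 1 library, so no p-value was computed and cells were not treated as replicates.

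A barcode needed 300 genes or more and could hold up to 20% mitochondrial UMIs, which left 16095 and 5695. Scrublet (scanpy 1.11.5) scored doublets in each library, and those with the highest scores, 0.8% for each 1000 barcodes, were taken out, 2072 (12.9%) and 259 (4.55%). A class gate asked for 10 UMIs from 4 of its markers. Barcodes with a gate other than rods were left out when their share of rod marker UMIs exceeded 0.5 of the rod median (443 and 397), and so were those with several such gates (41 and 22). UMIs were summed per class and library. A ratio of 2 counts carries the exact interval for Poisson counts, conditional on their sum, a ratio of balances Woolf's interval of 4 counts, and a share the exact Clopper-Pearson interval. Genes with at least 50 UMIs were tested for calls, and 5 CPM were added to both values of a log2 ratio. The promoter windows come from RefSeq GRCm38.p6.

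Members and lists were chosen with earlier results of these data known. Genes named are the 13 mitochondrial members, the nuclear member of each complex with most UMIs in rods, up to 5 called members per direction and comparison ranked by the bound nearest to 1, and fixed isoform groups. The steps were tested on simulated data. Alternatives covered doublets kept, other cell filters and gates, other scalings (TMM in edgeR 4.0.16, median-of-ratios), thinning to 1000 UMIs, a mean over cells, subunits only, other minimum counts and pseudocounts. Leaving out barcodes of other types, rods in parts by UMIs, and Ndufa4 counted in complex I were added after seeing the data. Some genes, and the results that need them, are not reported here.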

Additional observations from a re-analysis of the deposited data

How the results depend on the processing

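The balance stayed above that of rods in all 4 other classes under each of 10 alternatives. The light ratio over each whole class stayed below 1 in rods, cones, rod bipolar cells and microglia, although it was 1.09 in the lowest Malat1 part of rods, and ranged from 1.01 to 1.29 in Müller glia. Values that moved beyond the counting interval follow, with class against rods as the geometric mean of both libraries (1.71 in cones, 1.46 in rod bipolar cells, 1.61 in Müller glia and 1.84 in microglia as reported). With doublets kept, the light ratio was 0.946 in rods and 0.964 in cones. With at least 1000 UMIs and at most 10% mitochondrial UMIs, it was 0.948 in rods, and cones against rods was 1.68. With no mitochondrial limit, rods gave 0.924. A gate of 20 UMIs from 5 markers gave light ratios of 0.949 in rods and 1.01 in Müller glia, and 1.52 for Müller glia against rods. A rod marker limit of 0.33 gave 0.990 in cones and 0.676 in microglia, and 1.78 and 2.00 against rods. A mean over cells gave light ratios of 0.908 in rods, 0.871 in cones, 1.29 in Müller glia and 0.868 in microglia, and 1.91, 1.97 and 1.74 for the last 3 against rods. Thinning to 1000 UMIs, which left out 7 and 282 rods, gave 0.953 in rods, 0.891 in cones, 0.847 in rod bipolar cells, 1.29 in Müller glia and 0.851 in microglia, and 1.94 and 1.87 for cones and Müller glia against rods. With subunits only, rod bipolar cells were at 1.42. The median of 5 parts of rods was 0.95 by Malat1 share and 0.879 by UMIs per cell. Of the counts of called members, the single member lower in rods (mt-Nd2) fell to 0 with TMM, with doublets kept and with the stricter cell filter. For other scalings, filters and minimum counts the share of all genes called is not given, so these counts have no background beside them. With TMM, 1 member was higher in microglia between lights and 0 were higher in microglia against rods. With median-of-ratios scaling, 28 members were higher and 1 lower in rod bipolar cells, 1 lower in Müller glia and 0 lower in microglia against rods. A minimum of 10 UMIs gave 1 lower in microglia between lights. A minimum of 200 UMIs, where fewer genes are tested, gave 1 lower in cones and 1 lower in Müller glia between lights, and 0 higher in Müller glia against rods. Without barcodes of other types, 0 were lower in Müller glia between lights and 4 against rods. The cause of the other changes was not tested. Depth limits Müller glia and microglia most, which hold 3347 and 1595 mitochondrial member UMIs under white light against 138798 in rods. No paired analysis was possible because each condition has 1 library.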
